A study of Mus musculus with 3 samples.

Results

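The replication-dependent histone genes encode the core histones H2A, H2B, H3 and H4 and the linker histone H1 that package DNA as it is copied. They were chosen by symbol alone, as every row named Hist1h, Hist2h, Hist3h or Hist4h, which gave 67 genes of the 32285 rows in the count matrices: 6 H1, 18 H2A, 18 H2B, 12 H3 and 13 H4 genes. UMIs, the tagged molecules counted once each, were found for 64 of the 67 in the kept cells. Hist1h2bq, Hist1h2ba and Hist1h2aa had none. The genes summed to 253315 UMIs over the 3 libraries.

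Transcription of these genes rises when a cell enters S phase and their messages are destroyed when DNA synthesis ends. Their messages are unusual in ending, for the most part, in a short stem-loop bound by the protein SLBP in place of a poly(A) tail. Because droplet 3′ chemistry primes reverse transcription on poly(A), it captures these messages poorly, through the minority of polyadenylated copies or through internal runs of A. A level below is therefore a level of captured molecules, and was compared within a gene between cells rather than between genes.

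Single cells came from brainstem of B6(Cg)-Tyrc-2J/J mice. In 2 tumour libraries, 100000 cells of DIPG4423, a murine diffuse midline glioma line, had been injected into the brain at 6 weeks of age and tissue was taken 3 weeks later without treatment. The single normal library held brainstem with no tumour. Myelin was removed with beads and red cells were lysed in preparation; nothing in the labels says how many animals gave each library. After filtering, 10551 and 9391 cells remained in tumour 1 and tumour 2 and 3079 in normal, with median totals of 8791, 11284 and 2394 UMIs per cell. At most 30 cell barcodes were shared by any 2 libraries.

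Cells were clustered without the histone genes and named from marker genes. The glial progenitor-like class held 4387 and 2096 cells in the tumour libraries, no cell in the normal library, and summed 3665 to 4704 CPM (UMIs per 1000000 UMIs of the sum) over its 8 markers in each cell cycle state. The labels give no barcode or transgene for the injected line, so tumour and host cells of this class cannot be told apart. Cell cycle states were set on counts thinned to 1000 UMIs per cell, from 38 S-phase and 44 G2/M genes that include no histone gene. Cells with at least 3 S UMIs and more S than G2/M UMIs were S-marked, cells with at least 3 G2/M UMIs and no fewer than S UMIs were G2/M-marked, and cells with at most 1 UMI over both lists were unmarked.

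The stem-loop, a stem of 6 base pairs under a loop of 4 bases, was searched on the transcript strand of the GENCODE M21 models (GRCm38) as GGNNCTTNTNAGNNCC with pairing arms. It was found in 46 of the 67 histone genes and in 15 other genes, which is 0.0271% of the others. Where a model ends relative to the stem-loop differed among members, and the sequences below show that the element itself hardly did. Capitals mark the paired arms.
Hist1h2ap, on chromosome 13, model ending 3 bases after the element: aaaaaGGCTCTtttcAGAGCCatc
Hist1h3c, on chromosome 13, ending 74 bases after it: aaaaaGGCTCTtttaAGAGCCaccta
Hist1h1e, on chromosome 13, ending 1153 bases after it: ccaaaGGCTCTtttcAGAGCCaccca
Hist1h4d, on chromosome 13, ending 770 bases after it: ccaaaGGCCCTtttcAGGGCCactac
Hist1h3d, on chromosome 13, ending 752 bases after it: ccaaaGGCTCTtttcAGAGCCacccc
Hist3h2ba, on chromosome 11, ending 169 bases after it: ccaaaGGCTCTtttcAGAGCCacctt
In 23 members the model ended at most 100 bases past the stem-loop, in 23 it ran on further, and in 21 the model held no match. Members whose models ran on gave 50.0% of all histone UMIs, those ending near the element 27.6% and those without a match 22.3%. Most members lay in the cluster on chromosome 13 (54 genes between 21715763 and 23934851), with 10 on chromosome 3, 2 on chromosome 11 and 1 on chromosome 6.

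A few genes carried most of the signal. The 12 members with the most UMIs held 78.2% of the total, 29 members passed 1000 UMIs, and by type the H2A genes gave 35.4%, H1 31.0%, H2B 19.1%, H4 8.81% and H3 5.67%. Some of these counts cannot be assigned to a single gene with certainty. The last 300 bases of Hist1h2ap are wholly made of stretches found in other H2A genes, and those of Hist1h1e lie inside a long model of Hist1h2be on the same strand. Hist1h3c, Hist1h2ae and Hist2h2ac shared 28.6%, 18.7% and 6.22% of their last 300 bases with other histone genes. The tails of Hist1h1b, Hist1h1c, Hist1h1d, Hist1h2bc, Hist1h4d, Hist3h2ba, Hist3h2a, Hist1h2ac and Hist1h3d held no such shared stretch of 60 bases.

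Histone message was highest in G2/M-marked cells of the glial progenitor-like, microglia-like and macrophage-like classes. In the glial progenitor-like class the summed level of the 67 genes was 1919 and 1376 CPM in G2/M-marked cells of tumour 1 and tumour 2, 952 and 743 CPM in S-marked cells, and 436 and 283 CPM in unmarked cells. Microglia-like cells had 4754 and 3948 CPM when G2/M-marked, 1616 and 1320 CPM when S-marked, and 557 and 455 CPM when unmarked. Macrophage-like cells had 6296 and 4104 CPM, 1690 and 1243 CPM, and 287 and 204 CPM in the same states. In each of these classes the states did not overlap between the tumour libraries, and the order was the same in both.

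**Figure D1:**
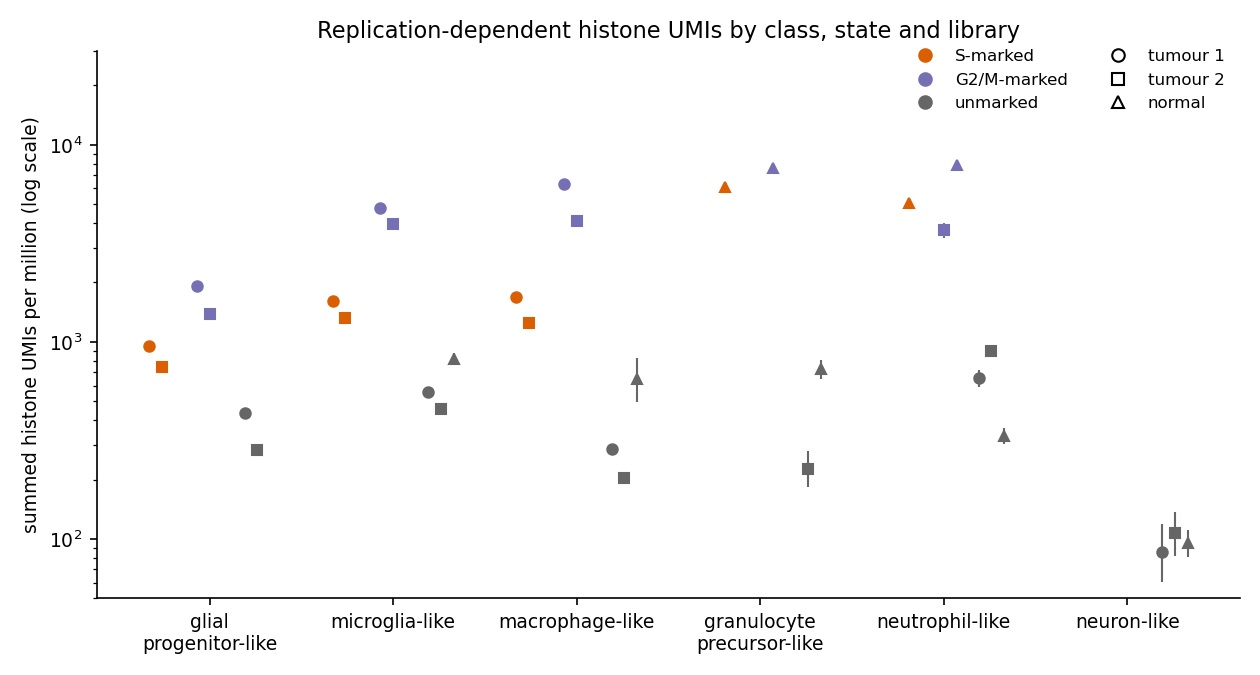
Summed histone CPM by cell class, cell cycle state and library; points are libraries, with exact Poisson 95% intervals that cover counting error only. G2/M-marked cells lie above S-marked and unmarked cells in the glial progenitor-like, microglia-like and macrophage-like classes. Among these 3 classes, G2/M-marked glial progenitor-like cells lie lowest (1919 and 1376 CPM, against 4754 and 3948 CPM in microglia-like cells).

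Relative to all UMIs, the histone level in dividing glial progenitor-like cells was lower than in dividing immune cells. Averaged over the tumour libraries, G2/M-marked cells held 1648 ± 384 CPM in the glial progenitor-like class, against 4351 ± 570 CPM in the microglia-like class and 5200 ± 1550 CPM in the macrophage-like class (SD, n = 2 libraries each). In the normal library, where few microglia-like cells were marked, the dividing cells were blood cells: granulocyte precursor-like cells held 7593 CPM when G2/M-marked and 6103 CPM when S-marked, neutrophil-like cells 7918 and 5064 CPM, and 29 G2/M-marked B-like cells 23562 CPM. Neuron-like cells, taken as non-dividing, gave 85.9 and 107 CPM in the tumour libraries and 95.2 CPM in the normal library when unmarked. The share of cells with at least 1 histone UMI among 1000 is also relative to all UMIs. This share was lower in G2/M-marked glial progenitor-like than in G2/M-marked microglia-like cells. It was 55.7% and 38.4% in G2/M-marked glial progenitor-like cells, against 73.1% and 78.8% in G2/M-marked microglia-like cells. In unmarked neuron-like cells it was 8.20% to 11.6%. Median depth before thinning was 24982 and 35088 UMIs in those glial progenitor-like cells, 11036 and 15427 in those microglia-like cells and 2606 to 3302 in those neuron-like cells. CPM and these shares are relative to total UMIs, and the number of histone UMIs per cell was not compared between classes. Unmarked glial progenitor-like cells had a UMI in 34.2% and 24.9% of cells, and unmarked microglia-like cells in 42.8% and 37.6%. The shares did not follow the CPM order in macrophage-like cells. Averaged over the tumour libraries, the G2/M-marked share was 71.2% there, against 75.9% in microglia-like cells. The S-marked share was 29.3% in macrophage-like cells, against 33.8% in glial progenitor-like cells, at 1467 and 847 CPM.

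S-phase genes alone did not mark the cells with most histone message. Among glial progenitor-like cells with no G2/M UMI, the summed level was 431 and 277 CPM with no S UMI, and 329 and 235 CPM with 6 or more S UMIs (10 and 12 cells), in tumour 1 and tumour 2. Cells with 6 or more UMIs from both lists held 8247 and 4571 CPM, with 40 and 31 cells. Cells with 6 or more G2/M UMIs and no S UMI lay in between, at 1106 and 934 CPM. The microglia-like class had the same low level in S-only cells, at 318 and 329 CPM with 3 to 5 S UMIs and no G2/M UMI, and held 9146 and 4460 CPM with 6 or more of both. Cells with many UMIs of both lists thus carried the most histone message in the glial progenitor-like class; in microglia-like cells of tumour 2 the group with 3 to 5 S UMIs and 6 or more G2/M UMIs was higher, at 5166 CPM.

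In glial progenitor-like cells, G2/M-marked against unmarked, 46 of 52 members tested were higher and none was lower (edgeR quasi-likelihood test on library sums, Benjamini-Hochberg adjusted p under 0.05, library as a block). Among all genes tested, 21.5% were higher and 21.6% lower. Without adjustment 1 member was lower at a p under 0.05, and DESeq2 called 34 higher and 0 lower. The median log2 difference of the tested members was 3.59. The other 15 members had too few UMIs to test, 3 of them with none and at most 45 in any (Hist1h3d). A member that passed the filter on low counts only through its high group had to differ, so the median describes the tested members and not all 67.

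Hist1h2ap, an H2A gene and the most counted member, had 486 and 314 CPM in G2/M-marked, 228 and 175 CPM in S-marked and 20.7 and 16.6 CPM in unmarked glial progenitor-like cells. The groups did not overlap, and G2/M-marked cells were 4.47 ± 0.07 log2 units above unmarked cells (SE; edgeR quasi-likelihood test, Benjamini-Hochberg adjusted p = 5.94e-26). Hist1h2ae, another H2A gene, had 177 and 142 CPM, 91.8 and 73.0 CPM, and 11.6 and 9.91 CPM in the same order of states, with a log2 difference of 3.95 ± 0.07. Hist2h2ac, an H2A gene of the chromosome 3 cluster, followed with 64.2 and 49.7 CPM when G2/M-marked, 32.6 and 22.6 CPM when S-marked and 4.63 and 4.01 CPM when unmarked. Hist1h3c, an H3 gene, was low in unmarked cells, at 33.8 and 47.7 CPM when G2/M-marked, 18.3 and 26.1 CPM when S-marked and 1.02 and 1.47 CPM when unmarked. The core histone genes Hist1h2ap, Hist1h2ae, Hist2h2ac and Hist1h3c were thus all low in unmarked cells of both libraries.

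The H1 genes did not move alike. Hist1h1e, which encodes H1.4, had 358 and 214 CPM in G2/M-marked glial progenitor-like cells, 160 and 106 CPM in S-marked cells and 77.2 and 28.8 CPM in unmarked cells, a log2 difference of 2.54 ± 0.10 between G2/M-marked and unmarked cells. Hist1h1c, which encodes H1.2, had a smaller difference between states, at 116 and 79.4 CPM when G2/M-marked, 53.5 and 39.3 CPM when S-marked and 56.8 and 36.2 CPM when unmarked. Its S-marked and unmarked cells differed by 0.01 ± 0.09 log2 units, and its G2/M-marked cells rose by 1.12 ± 0.07. Hist1h1d, which encodes H1.3, resembled the core genes, with 32.4 and 29.3 CPM, 16.8 and 10.8 CPM, and 1.62 and 1.20 CPM.

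In G2/M-marked against unmarked glial progenitor-like cells, 6 of the 52 tested members were not called. Among them the H2B gene Hist2h2be and the H3 genes Hist2h3c1 and Hist2h3c2 had log2 differences of 0.31, 0.48 and 0.31. The others were the H2A and H2B genes Hist1h2bc, Hist3h2ba and Hist3h2a. Hist1h2bc, an H2B gene whose model holds no stem-loop, had 124 and 69.4 CPM in G2/M-marked, 92.7 and 41.6 CPM in S-marked and 121 and 67.0 CPM in unmarked glial progenitor-like cells. The G2/M-marked and unmarked cells differed by 0.09 ± 0.06 log2 units (edgeR quasi-likelihood test, Benjamini-Hochberg adjusted p = 0.268). Hist3h2ba, an H2B gene on chromosome 11, had 54.0 and 42.7 CPM, 38.1 and 34.0 CPM, and 63.1 and 47.7 CPM, and its difference of -0.15 ± 0.07 did not pass either. Its neighbour Hist3h2a, an H2A gene, had 25.1 and 23.9 CPM, 14.9 and 17.1 CPM, and 25.6 and 26.0 CPM. In S-marked cells 3 members fell against unmarked cells, by 0.51 (Hist1h2bc), 0.61 (Hist3h2ba) and 0.68 (Hist3h2a) on the log2 scale. Another 38 of the 52 members rose there, with a median of 2.52 over the tested members, where 11.8% of all genes were higher and 6.81% lower.

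**Figure D2:**
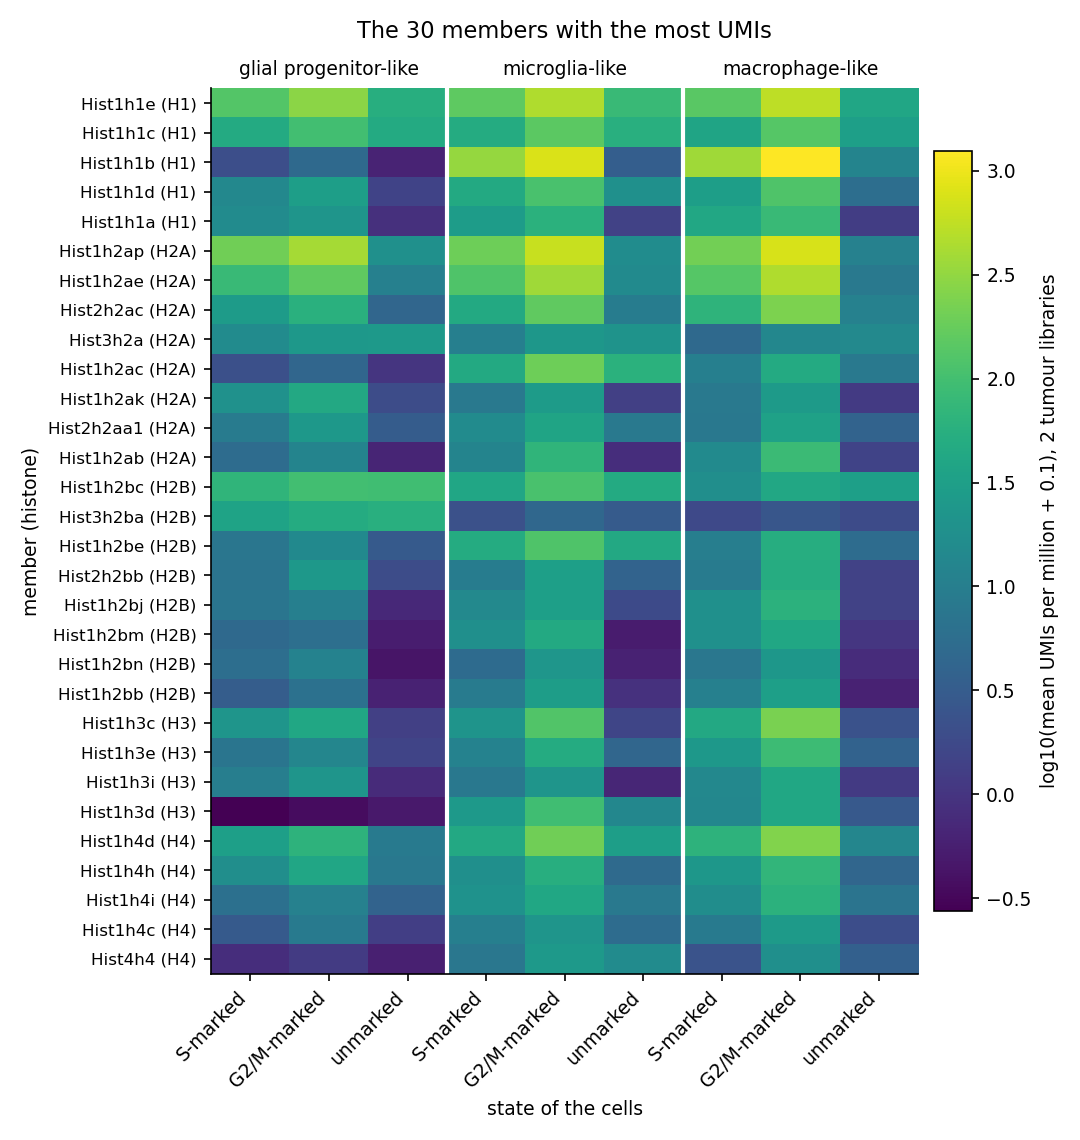
Levels of the 30 most counted histone genes (log10 of mean CPM plus 0.1 over the tumour libraries) in S-marked, G2/M-marked and unmarked cells of each class. Hist1h2ap, Hist1h2ae and Hist1h3c are low in every unmarked column, Hist3h2ba is high in glial progenitor-like cells of each state and low elsewhere, and Hist1h1b is low in glial progenitor-like cells of each state.

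By type, 5 of 5 tested H1 genes, 12 of 13 H2A genes, 10 of 13 H2B genes, 7 of 9 H3 genes and 12 of 12 H4 genes were higher in G2/M-marked than in unmarked glial progenitor-like cells. Further members with the largest differences among those that passed were Hist1h4b (5.17 ± 0.81), Hist1h4n (5.14 ± 0.69), Hist1h3i (5.11 ± 0.16), Hist1h2bn (4.91 ± 0.22) and Hist1h1a (4.80 ± 0.16), in log2 units with SE. Hist1h4n gave 3.22 without tumour 1 and 6.01 without tumour 2. Hist1h4b and Hist1h4n rest on few counts. Over all classes, Hist1h4b had 36 and 22 UMIs in G2/M-marked and 6 and 7 in unmarked cells of the tumour libraries. Hist1h4n had 49 and 13, and 8 and 12. The limit given above for members that pass the filter through their high group bears on both. S-marked cells were lower than G2/M-marked cells for 31 of the 52 members and higher for none, with a median of -1.04, where 9.38% of all genes were higher and 10.7% lower. In that comparison no member was higher at an unadjusted p under 0.05 or by DESeq2, and the same held for the counts of 0 in the microglia-like and macrophage-like classes described next.

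Microglia-like cells showed the same arrangement with larger differences for several genes. G2/M-marked against unmarked, 48 of 50 tested members were higher and none lower, with a median of 3.52, where 21.3% of all genes were higher and 19.1% lower. S-marked against unmarked, 35 were higher and 2 lower, with a median of 2.29, where 15.2% of all genes were higher and 10% lower. The lower members were Hist4h4, at -1.01, and Hist3h2a, at -0.86, or -1.44 without tumour 2. Neither passed with DESeq2 or without the block. S-marked cells were below G2/M-marked cells for 39 members and above for none, where 3.76% of all genes were higher and 4.85% lower. Hist1h2ap had 665 and 544 CPM in G2/M-marked, 212 and 171 CPM in S-marked and 19.1 and 13.4 CPM in unmarked microglia-like cells. Hist1h2bc, which did not rise in glial progenitor-like cells, had 122 and 103 CPM when G2/M-marked and 43.1 and 50.0 CPM when unmarked, 1.34 ± 0.12 log2 units higher. In macrophage-like cells 40 of 42 tested members were higher in G2/M-marked than in unmarked cells and none lower, with a median of 4.63, where 13.4% of all genes were higher and 10.3% lower. There, S-marked against unmarked, 31 were higher and 2 lower (Hist3h2a, -1.68, and Hist1h2bc, -0.86), where 12.1% of all genes were higher and 8.29% lower. S-marked against G2/M-marked, 37 were lower and none higher, where 2.33% of all genes were higher and 3.9% lower.

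Members whose model runs on past the stem-loop differed less between states. The median log2 difference between G2/M-marked and unmarked glial progenitor-like cells was 2.48 for the 20 such members tested, 3.92 for the 16 whose model ends near the stem-loop and 3.98 for the 16 with no match. In microglia-like cells the medians were 2.39, 4.63 and 5.32, and in macrophage-like cells 3.64, 5.24 and 5.37. The difference between these groups of genes was not tested. Hist1h1e, Hist1h1c, Hist1h4d, Hist3h2ba and Hist3h2a are among those that run on. Hist1h2bc holds no match and was among the 2 such members, of 16 tested, not called higher in glial progenitor-like cells.

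**Figure D3:**
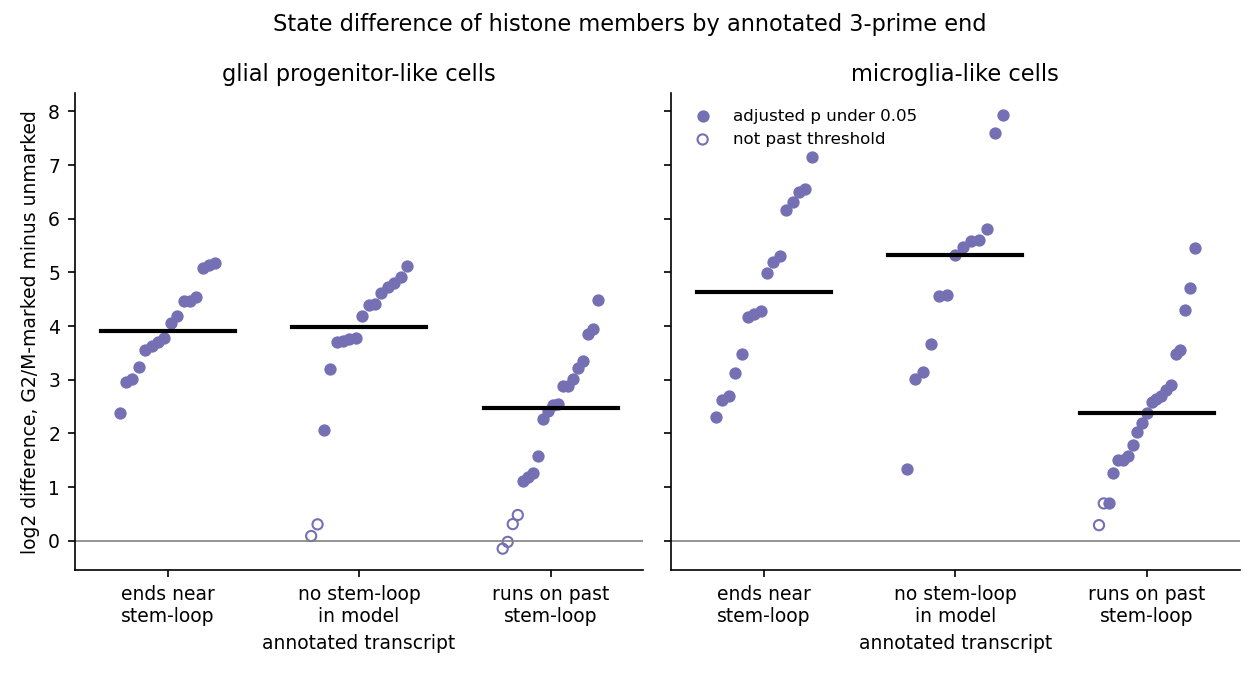
Log2 difference of each tested histone gene between G2/M-marked and unmarked cells, by class and by where its gene model ends relative to the stem-loop. Points are genes and bars are medians; the median of members that run on (2.48 in glial progenitor-like cells) lies below the other medians (3.92 and 3.98).

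Hist1h1b, which encodes H1.5, separated the dividing classes more than any other of the 12 most counted members. In glial progenitor-like cells it had 5.46 and 3.94 CPM when G2/M-marked (139 and 77 UMIs), against 850 and 722 CPM in G2/M-marked microglia-like cells (1991 and 2226 UMIs). S-marked cells had 1.52 and 2.37 CPM in the glial progenitor-like class, against 334 and 329 CPM in the microglia-like class. Macrophage-like cells resembled the microglia-like ones, at 1609.8 and 883 CPM when G2/M-marked. The glial progenitor-like and microglia-like levels did not overlap in any state. The log2 difference was -7.86 ± 0.17 between G2/M-marked glial progenitor-like and microglia-like cells and -7.92 ± 0.18 between S-marked ones (edgeR quasi-likelihood test, Benjamini-Hochberg adjusted p = 9.35e-09 and 4.25e-08). Unmarked cells differed too, at 0.546 and 0.514 CPM against 3.50 and 3.21 CPM, a difference of -3.12 ± 0.50. The microglia marker list summed to 139 and 233 CPM in G2/M-marked glial progenitor-like cells, against 7197 and 9704 CPM in G2/M-marked microglia-like cells, with all 8 markers detected in both; its part in the Hist1h1b counts of glial progenitor-like cells was not tested.

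The difference in the response to division was itself tested. Between S-marked and unmarked cells, the log2 difference of Hist1h1b was 4.95 ± 0.33 smaller in glial progenitor-like than in microglia-like cells (edgeR quasi-likelihood test of the interaction, Benjamini-Hochberg adjusted p = 0.00179). It was the only 1 of 48 tested members to pass there, where 0.0137% of all genes were higher and 0.212% lower, and 8 members had an unadjusted p under 0.05. With doublets kept it gave -4.50 at an adjusted p of 0.0623. For the difference between G2/M-marked and unmarked cells, 6 of 59 members were lower and 1 higher in glial progenitor-like cells, where 0.51% of all genes were higher and 1.44% lower. The lower ones were Hist1h1b, Hist1h3d, Hist2h2be, Hist1h2ab, Hist1h2ap and Hist1h2ae, at -4.82, -3.63, -2.84, -2.20, -0.96 and -0.87 log2 units. Hist1h1d was higher, by 1.71 ± 0.29. Hist1h1b and Hist1h3d passed in each alternative test of this difference, and the other 5 lost the call in at least 1. Hist1h3d had too few UMIs in glial progenitor-like cells (45 over 6 sums) for a test between states within that class. Hist2h2be gave -1.83 without tumour 1. The unmarked level of Hist1h1d was 1.62 and 1.20 CPM in glial progenitor-like cells, against 16.3 and 20.7 CPM in microglia-like cells.

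Relative to total UMIs, the level of most members was lower in glial progenitor-like than in microglia-like cells of the same state. Among G2/M-marked cells, 48 of 59 members were lower and 1 higher, with a median of -2.11, where 28.6% of all genes were higher and 34.3% lower. Among S-marked cells 32 of 48 were lower and 1 higher, with a median of -1.33, where 26.4% of all genes were higher and 34% lower. Among unmarked cells 24 of 42 were lower and 1 higher, with a median of -1.27, where 37% of all genes were higher and 35.2% lower. The comparison within marked cells and the G2/M interaction were added after the data had been seen.

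Hist3h2ba was the member that was higher in glial progenitor-like cells in each of these comparisons. G2/M-marked glial progenitor-like cells had 54.0 and 42.7 CPM, against 5.98 and 2.92 CPM in G2/M-marked microglia-like cells, a log2 difference of 3.01 ± 0.26. Unmarked cells had 63.1 and 47.7 CPM in the glial progenitor-like class, against 4.18 and 1.72 CPM in the microglia-like class, a difference of 4.01 ± 0.24 (edgeR quasi-likelihood test, Benjamini-Hochberg adjusted p = 2.22e-06). Macrophage-like cells had at most 2.89 CPM in any state. Its neighbour Hist3h2a, whose start lies on the same strand of chromosome 11, did not differ between the classes in unmarked cells by more than the error (-0.01 ± 0.17).

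**Figure D4:**
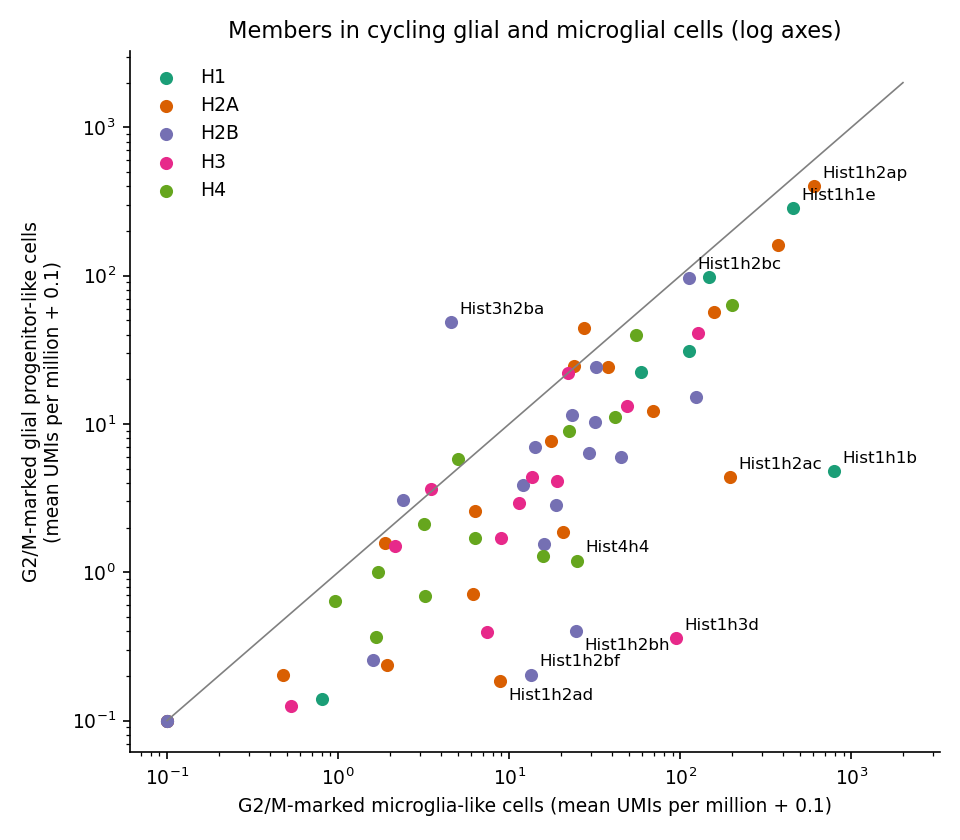
Mean CPM of each histone gene in G2/M-marked glial progenitor-like cells against G2/M-marked microglia-like cells, over the tumour libraries, on log10 axes. Most points lie on the microglia-like side of the line of equality, Hist1h1b and Hist1h3d lie farthest from it, and Hist3h2ba lies on the other side.

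The promoters of these genes show which elements they share. Sequences are from RefSeq (GRCm38.p6), from 250 bases before to 50 bases after the annotated start, and 62 of the 67 genes matched an entry. Capitals mark the CCAAT box, the TATA element TATAAA, the octamer ATTTGCAT and the H1 promoter motif AAACACA on either strand; none of these motifs is part of another. Hist1h1b and Hist1h1e are shown because a pair of H1 genes with the same elements differed widely in dividing glial progenitor-like cells, and Hist3h2ba because it was the member higher in them.
Hist1h1b (H1f5), chr13:21780576-21780875, minus strand: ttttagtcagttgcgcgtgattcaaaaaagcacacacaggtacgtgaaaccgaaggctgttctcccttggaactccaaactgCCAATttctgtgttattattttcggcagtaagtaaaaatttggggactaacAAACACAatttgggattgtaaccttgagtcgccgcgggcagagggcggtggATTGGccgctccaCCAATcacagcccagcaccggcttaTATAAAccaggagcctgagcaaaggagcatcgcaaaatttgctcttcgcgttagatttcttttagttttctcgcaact
Hist1h1e (H1f4), chr13:23622509-23622808, minus strand: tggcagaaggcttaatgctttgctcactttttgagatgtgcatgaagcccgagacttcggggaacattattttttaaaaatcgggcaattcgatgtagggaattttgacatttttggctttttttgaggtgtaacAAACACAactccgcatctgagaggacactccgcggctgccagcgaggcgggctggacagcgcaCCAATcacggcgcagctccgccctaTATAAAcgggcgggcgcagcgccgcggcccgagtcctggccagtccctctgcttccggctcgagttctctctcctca
Hist3h2ba (H2bu2), chr11:58948661-58948960, plus strand: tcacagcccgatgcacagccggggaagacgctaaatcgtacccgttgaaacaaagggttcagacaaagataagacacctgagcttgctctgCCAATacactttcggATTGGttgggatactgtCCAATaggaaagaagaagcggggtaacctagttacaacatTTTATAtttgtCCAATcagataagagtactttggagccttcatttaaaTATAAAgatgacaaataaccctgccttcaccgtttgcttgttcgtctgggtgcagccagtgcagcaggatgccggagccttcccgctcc
CCAAT was found in 53 of the 62 promoters (85.5%), against 37.4% of all 32851 promoters in the table. It was present in 6 of 6 H1, 18 of 18 H2A, 16 of 16 H2B and 10 of 10 H3 promoters, and in 3 of 12 H4 promoters. TATAAA was found in 35 (56.5%, against 13.6% of all promoters). ATTTGCAT was found in 13 of 62, against 1.74% of all promoters, in 7 H2A and 6 H2B genes. AAACACA was found in 9 (14.5%, against 7.18%), of which 5 were among the 6 H1 promoters. These matches are letters in a window and describe no binding.

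Several of the genes nearly absent from glial progenitor-like cells lie side by side on chromosome 13. Hist1h2bf, Hist1h2ad and Hist1h3d have their lowest coordinates at 23573736, 23574381 and 23575763. Over all G2/M-marked glial progenitor-like cells they had 4 and 1, 3 and 1, and 4 and 7 UMIs in tumour 1 and tumour 2. G2/M-marked microglia-like cells, with fewer cells and fewer UMIs, had 38 and 32, 25 and 21, and 207 and 311 UMIs. The log2 differences were -7.30 ± 0.54 for Hist1h2bf, -7.02 ± 0.55 for Hist1h2ad and -9.02 ± 0.24 for Hist1h3d. These are fitted values on few counts in the glial progenitor-like sums. The next gene toward lower coordinates was the H2B gene Hist1h2bg (lowest coordinate 23571396). It had 1.30 and 1.59 CPM in G2/M-marked glial progenitor-like cells, against 21.8 and 10.05 CPM in G2/M-marked microglia-like cells. The difference was -3.89 ± 0.36. Beyond Hist1h2bg, Hist1h2ae (lowest coordinate 23570517) had 177 and 142 CPM in G2/M-marked glial progenitor-like cells. On the other side Hist1h4d (lowest coordinate 23581598) had 60.6 and 65.9 CPM in those cells. Hist1h2bf and Hist1h2ad start 185 bases apart on opposite strands, as H2A and H2B genes did in 12 of the 13 such pairs found within 1000 bases. Hist1h2ac and Hist1h2bc, a pair 251 bases apart, differed in the class comparison: G2/M-marked glial progenitor-like cells had 4.28 and 4.25 CPM of Hist1h2ac, against 226 and 165 CPM in microglia-like cells, and 124 and 69.4 CPM of Hist1h2bc, against 122 and 103 CPM. Hist4h4, the H4 gene on chromosome 6, had 1.02 and 1.18 CPM, against 28.2 and 21.7 CPM. Large differences were thus not confined to Hist1h2bf, Hist1h2ad and Hist1h3d. In the same comparison Hist1h2bh gave -6.79 ± 0.37 and Hist1h3g -5.13 ± 0.53 log2 units. Hist1h3f, which starts 660 bases from Hist1h2bh on the opposite strand, gave -2.67 ± 0.27.

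Against the normal library, the sum over all kept cells was lower in tumour: 927 and 677 CPM in the tumour libraries, against 2210 CPM in normal brainstem. By the edgeR quasi-likelihood test, 18 of 62 tested members were lower and 1 higher, with a median of -1.23 and a median of 0.14 over all genes, where 12.7% of all genes were higher and 8.13% lower. Hist1h2ap had 149 and 91.8 CPM in tumour against 631 CPM in normal, a difference of -1.85 ± 0.34. Hist3h2ba was the higher member, at 43.0 and 21.6 CPM against 6.15 CPM, a difference of 2.93 ± 0.52. Because there was 1 normal library, p-values rest on the spread between the tumour libraries. In a sum over cells, the mix of cell types and the level per cell cannot be told apart.

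The cells that supplied histone UMIs were different in the 2 tissues. Glial progenitor-like cells gave 65.8% and 44.7% of the histone UMIs in tumour 1 and tumour 2, microglia-like cells 15.6% and 26.3%, and macrophage-like cells 12.8% and 13.2%. In the normal library granulocyte precursor-like cells gave 42.0%, neutrophil-like cells 30.6% and B-like cells 18.3%, with 8.93%, 17.5% and 7.31% of its cells. Without these 3 classes in any library, a choice made after seeing the data, 21 of 61 tested members were higher in tumour and none was lower by edgeR, where 18.3% of all genes were higher and 10.5% lower, and 35 members had an unadjusted p under 0.05. The median was 1.88 over those members and 0.20 over all genes. Hist1h2ap was 3.65 log2 units higher in tumour in that fit. The classes left out had given most histone UMIs of the normal library. A shift toward higher in tumour was therefore built into the choice and is no independent result.

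Within a class, tumour and normal cells could lie in different clusters. Of the microglia-like cells of tumour 1, 57.7% lay in cluster 7 and 33.1% in cluster 1, and of those of tumour 2, 54.7% lay in cluster 1 and 33.6% in cluster 4. Of the normal ones 80.5% lay in cluster 6, led by Gpr34 and P2ry12, which held 0.0376% and 0.631% of the tumour ones. In microglia-like cells 16 of 59 members were higher and 1 lower, where 12.7% of all genes were higher and 6.56% lower. Hist1h1b had 158 and 98.1 CPM in tumour against 8.32 CPM in normal, a difference of 4.40 ± 0.41 (edgeR quasi-likelihood test, Benjamini-Hochberg adjusted p = 0.00117). Hist3h2a fell, at 18.4 and 22.0 CPM against 59.0 CPM. Of those microglia-like cells, 197 and 179 were G2/M-marked in tumour and 3 in normal. When the comparison was limited to unmarked microglia-like cells, 3 of 39 members were lower and none higher (0 higher by the edgeR quasi-likelihood test and by DESeq2; 2 higher and 6 lower at an unadjusted p under 0.05), where 8.66% of all genes were higher and 4.49% lower. The lower ones were Hist2h2be (-2.54 ± 0.61), Hist1h1d (-1.41 ± 0.30) and Hist3h2a (-1.19 ± 0.30). Hist1h1d had 16.3 and 20.7 CPM in unmarked tumour microglia-like cells, against 67.6 CPM in unmarked normal ones.

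In neutrophil-like cells 16 of 40 members were lower in tumour and 1 higher, with a median of -2.30, where 6.84% of all genes were higher and 7.8% lower. Hist1h2ap had 304 and 55.4 CPM in tumour against 1094 CPM in normal, and Hist1h2ae 81.1 and 34.3 CPM against 338 CPM. The Hist1h2ap difference was -3.21 ± 0.65 with both tumour libraries and -4.84 without tumour 1, and its adjusted p with DESeq2 was 0.321. Hist1h2bc was the higher member, at 141 and 159 CPM against 44.1 CPM. Of the neutrophil-like cells, 89.2% in tumour 1 and 95.5% in tumour 2 lay in cluster 13, led by Cxcl2, Il1b and Cxcr2, against 35.9% in normal; the other 64.1% in normal lay in cluster 25, led by Camp, Ngp and Ltf, which held 78 G2/M-marked cells. Of the normal neutrophil-like cells, 72 were G2/M-marked, with 7918 CPM; unmarked neutrophil-like cells held 653 and 903 CPM in tumour against 334 CPM in normal. In B-like cells 21 of 33 members were lower in tumour and none higher, 0 also at an unadjusted p under 0.05. Of all genes there, 4.91% were higher and 5.74% lower, on 20 and 95 tumour cells. In normal B-like cells, G2/M-marked cells held 1313 of 1357 Hist1h2ap UMIs and 584 of 613 Hist1h1b UMIs. Unmarked B-like cells had 47.2 CPM of Hist1h2ap in tumour 2 against 122 CPM in normal. For Hist1h1b they had 75.5 against 43.5 CPM. B-like cells of 1 state were not tested between tissues. In endothelial-like cells 6 of 16 members were higher, among them Hist1h1e (2.82 ± 0.47) and Hist1h2ap (2.39 ± 0.55), and Hist2h2be was lower (-2.72 ± 0.76, log2), where 22.7% of all genes were higher and 16.6% lower. In the tumour libraries 58 and 148 endothelial-like cells lay in cluster 21, led by Ctla2a, Apln and Angpt2, which held 20 G2/M-marked cells and no normal cell, and 14 and 63 in cluster 17, led by Slco1a4 and Cxcl12, which held all 143 normal ones. By the edgeR quasi-likelihood test none of 4 members passed in T or NK-like cells (0 at an unadjusted p under 0.05), where 1.91% of all genes were higher and 1.59% lower. None of 11 passed in fibroblast-like cells (1 unadjusted), where 9.57% were higher and 6.03% lower. None of 2 passed in neuron-like cells (1 unadjusted), where 2.88% were higher and 0.639% lower. None of 4 passed in choroid plexus-like cells (2 unadjusted), where 0% were higher and 0.334% lower. Astrocyte-like cells had 1 higher member of 9, Hist1h1e, by 1.50 ± 0.45, and none lower (3 at an unadjusted p under 0.05), where 4.02% of all genes were higher and 3.03% lower. In macrophage-like cells none of 54 members passed, with 5 at an unadjusted p under 0.05 by edgeR, where 0.996% of all genes were higher and 1.12% lower; the normal sum held 35 cells.

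Genes that act on histones and their messages were measured in the same comparisons. Of 18 histone chaperones, 15 were higher in S-marked than in unmarked glial progenitor-like cells and none was lower, where 11.8% of all genes were higher and 6.81% lower, among them Asf1b (4.01), Chaf1b (3.64), Chaf1a (2.70) and Hat1 (2.10), in log2 units; Asf1b carries H3 and H4 to the CAF-1 complex that Chaf1a and Chaf1b belong to, and Hat1 acetylates new H4. Of 19 genes for histone gene transcription and 3′ end processing, 10 were higher and none lower, including Slbp (1.70), which binds the stem-loop, Eri1 (1.31), Casp8ap2 (1.28) and Lsm11 (1.00). Of 11 histone variants made outside S phase, 6 were higher and 2 lower. In G2/M-marked against unmarked cells, where 21.5% of all genes were higher and 21.6% lower, 15 chaperones were higher and none lower, 13 processing genes were higher and 1 lower, and 10 variants were higher and 1 lower, with Cenpa, the centromeric H3 variant, at 5.42 and H2afx at 3.81. Between unmarked glial progenitor-like and microglia-like cells, where 37% of all genes were higher and 35.2% lower, 10 chaperones were higher and 4 lower, 4 of 18 processing genes were higher and 10 lower, and 7 variants were higher and 1 lower, led by H2afy2 (4.34) and H1fx (4.23).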

How the data were processed

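The deposited matrices hold raw UMI counts, which the authors had not normalised. The file headers name Cell Ranger 6.1.2, the submitters' processing notes name mm10, and the labels name 10x 3′ chemistry. The annotation release the authors used is not given in the sources used here. Totals were 151906460, 157114723 and 15035292 UMIs in tumour 1, tumour 2 and normal. Barcodes were kept with at least 500 UMIs, 300 genes and at most 15% mitochondrial UMIs; Scrublet in scanpy 1.11.5 removed 374, 254 and 50 doublets. Leiden clustering (leidenalg 0.10.2, resolution 1.0, 2000 variable genes, 30 components, 15 neighbours) left out the 67 histone genes and 48 related genes, and 18 marker lists named clusters. A name needed a score of 1 or more and 3 or more markers seen in 10% of the cluster's cells. Classes are rebuilt from markers, and 1613, 957 and 116 cells of tumour 1, tumour 2 and normal stayed unnamed.

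Sums per library, class and state were tested over all genes with edgeR 4.0.16 in R 4.3.3 (quasi-likelihood, TMM, filterByExpr, Benjamini-Hochberg threshold 0.05). The labels do not say whether the tumour libraries came from separate animals, so p-values measure the spread between these samples, which may be technical. In comparisons of states or classes the same library supplies both sums, so library entered as a replicate block: this pairing comes from the design. Tumour against normal has no such pairing. DESeq2 1.42.0, library-size scaling, no filter on low counts, a stricter cell filter (1000 UMIs, 500 genes, 10%), doublets kept, state thresholds of 2 and 4 UMIs, thinning to 2000 UMIs, no block and leaving out each tumour library were alternatives. The outcome of a check of the tests on simulated counts is not given here, so it vouches for no p-value above. Intervals are exact Poisson or Clopper-Pearson at 95% and cover counting error only.

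Described singly were the 12 members with the most UMIs and, per comparison, up to 10 further members past the threshold by absolute log2 change, with up to 4 examples per related gene list; others were named beside a count or for their position after their values had been seen. The members, gene lists and comparisons were chosen with earlier results of these data known. Gene models came from GENCODE M21 (GRCm38), where the 67 identifiers matched. Proteins were not used here.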

Additional observations from a re-analysis of the deposited data

Results flagged for a closer look

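For 8 results the effect of cell cycle state differed between glial progenitor-like and microglia-like cells, by a test of the difference itself (edgeR quasi-likelihood test of the interaction, Benjamini-Hochberg adjustment, 2 tumour libraries). Each value is the log2 difference between marked and unmarked cells in the glial progenitor-like class minus that in the microglia-like class. In each of the 8, both tumour libraries had the same sign when the other was left out. Hist1h1b, an H1 gene, gave -4.95 ± 0.33 for S-marked cells (adjusted p = 0.00179) and -4.82 ± 0.30 for G2/M-marked cells (adjusted p = 0.000196). For G2/M-marked cells the H3 gene Hist1h3d gave -3.63 ± 0.44 (adjusted p = 0.00579), the H2B gene Hist2h2be -2.84 ± 0.50 (0.0285; -1.83 without tumour 1 and -3.97 without tumour 2) and the H2A gene Hist1h2ab -2.20 ± 0.36 (0.0220). Hist1h3d had 45 UMIs over the 6 glial progenitor-like sums, too few for a test between states within that class. Smaller differences were found for Hist1h2ap, at -0.96 ± 0.19 (0.0374), and Hist1h2ae, at -0.87 ± 0.18 (0.0471), both H2A genes. The H1 gene Hist1h1d went the other way, at 1.71 ± 0.29 (0.0238). No cause was tested.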

How the results depend on the processing

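Of the values for named members under alternatives, 2969 kept direction and call, 142 lost the call, 25 gained it, 303 moved without a test and 17 reversed; the causes were not tested. Counts below are of members past an edgeR adjusted p of 0.05 unless DESeq2 is named.

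In tumour against normal over all kept cells, leaving out granulocyte precursor-like, neutrophil-like and B-like cells (chosen after seeing the data) gave 21 higher and 0 lower, and reversed Hist1h2ap (3.65), Hist1h2ae (3.34), Hist1h1b (3.64), Hist1h4d (1.50), Hist1h1d (0.84), Hist1h3c (3.96), Hist1h4m (0.85), Hist1h4n (0.34), Hist1h4b (7.79), Hist1h2bk (0.31), Hist1h3b (3.79), Hist1h3g (1.06), Hist1h4k (0.76), Hist1h2ab (3.17) and Hist1h2ai (3.09, log2). The classes left out had given most histone UMIs of the normal library, so these reversals were built into the choice. Library-size scaling gave 32 lower and shifted the median of all genes to -0.42. In microglia-like cells DESeq2 gave 8 higher and 0 lower, library-size scaling 3 lower, and no count filter, the stricter cell filter and doublets kept 2 lower each. In unmarked microglia-like cells no count filter gave 2 higher and library-size scaling 6 lower. In neutrophil-like cells DESeq2 gave 0 higher and 2 lower, the stricter cell filter 0 and 7, library-size scaling 8 lower, and no count filter and doublets kept 25 lower each.

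Without the replicate block, S-marked against unmarked glial progenitor-like cells gave 23 higher and 1 lower, and S-marked against G2/M-marked gave 6 lower in glial progenitor-like, 21 in microglia-like and 11 in macrophage-like cells (24 with DESeq2). S-marked against unmarked, lower members numbered 0 without the block and with DESeq2 and 1 at a state threshold of 2 UMIs in microglia-like cells, and 0 with DESeq2 and 1 without the block and with library-size scaling in macrophage-like cells. Library-size scaling gave 1 lower in G2/M-marked against unmarked glial progenitor-like cells. No paired analysis of tumour against normal was possible, because nothing in the labels pairs these libraries.

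Between glial progenitor-like and microglia-like cells, unmarked cells gave 3 higher with library-size scaling and 2 with no count filter; S-marked cells 2 with DESeq2 and library-size scaling; and G2/M-marked cells 2 with library-size scaling. The S-marked interaction gave 3 higher with DESeq2 and with no count filter and 0 lower with doublets kept. The G2/M-marked interaction gave 10 lower and 2 higher with DESeq2, 12 and 2 with no count filter, 2 lower with library-size scaling, and 2 and 0 at a threshold of 2 UMIs and without the replicate block. For S-marked Hist1h2ap the sign reversed to 0.065 with library-size scaling, and leaving out a tumour library gave -0.11 (tumour 1) and 0.045 (tumour 2).

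Summed levels moved with the state threshold: S-marked glial progenitor-like cells held 673 CPM at 2 UMIs and 1045 at 4, S-marked microglia-like cells 1041 and 1825, and G2/M-marked microglia-like cells 3628 at 2. Shares of cells with a histone UMI at 2000 thinned UMIs were 51.5%, 62.4% and 46.4% in S-marked, G2/M-marked and unmarked glial progenitor-like cells and 60.5%, 85.0% and 56.8% in microglia-like cells; at a threshold of 2 UMIs they were 40.0% and 66.9% in S-marked and G2/M-marked microglia-like cells. Depth limits the 15 to 25 members per class that could not be tested.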

Other observations

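Dividing dendritic-like, endothelial-like and fibroblast-like cells in tumour 2 also carried histone message, on few cells. G2/M-marked cells held 7384 CPM in the dendritic-like class (20 cells), 800 CPM in the endothelial-like class (20 cells) and 1329 CPM in the fibroblast-like class (25 cells), against 325, 329 and 219 CPM in unmarked cells of the same classes. Choroid plexus-like cells held 889 CPM in tumour 2 when unmarked, above unmarked astrocyte-like cells there at 292 CPM. Hist1h2bc alone gave 555 CPM of that choroid plexus-like sum, and Hist1h2ap gave 0. Over all choroid plexus-like cells Hist1h2bc had 862 and 577 CPM in the tumour libraries and 1076 CPM in normal. Each summed level given here is from 1 library, so no test was made.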
